A study of Homo sapiens with 12 samples.

Results

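The assay's baseline was read from 380 ordered pairs of inert control domains, of 9983 library members with at least 1 read and 10000 possible members. A pair entered when both of its domains were named as tiles of the DMD protein or as random controls, when the domains differed, and when neither was DMD tile 31. The rule reads names only, but it was written with earlier results of these data known, and the tile it leaves out differed between fractions in 2 of the 3 screens, as described further on. It left 20 domains, 10 DMD tiles (130, 131, 171, 176, 182, 251, 255, 259, 297 and 357) and 10 random controls (21, 89, 124, 205, 257, 297, 372, 385, 410 and 411). These gave 90 pairs of DMD tiles (DMD+DMD), 100 pairs with a DMD tile first and a random control second (DMD+random), 100 in the opposite order (random+DMD) and 90 pairs of random controls (random+random). A pair is written as first position + second position. The labels speak of 20 negative controls, 10 of them DMD tiles, whereas the names in the files gave 11 DMD tiles with tile 31.

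All 12 libraries came from K562, a human chronic myeloid leukaemia line that grows in suspension, infected with a lentiviral library of rTetR fusions that each carry a pair of domains. The reporter line K562 + pDY032 was used for the activation screen, with 2 days of doxycycline. The line K562 + pJT039 was used for the repression screen, with 5 days of doxycycline, and for a memory screen that the labels call unused, where 5 days of doxycycline preceded 5 days of withdrawal. Every group had blasticidin for 7 days and doxycycline at 1000 ng/mL from day 8 after infection, at about 600 infected cells per member, and each screen had a bound and an unbound fraction in 2 separately infected replicates. The submitters name the cell populations ON and OFF, and the bound fraction was taken to be ON. The sources used here do not say how cells were divided into fractions. The p-values rest on the spread between replicates of 1 cell line, estimated over all 12 libraries together. The p-value of a screen therefore also draws on the replicates of the other screens and of the other reporter line.

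The fusion protein rTetR binds its DNA operator only when doxycycline is present, so a domain fused to it reaches the reporter only during treatment. Dystrophin, the product of DMD, is a large cytoskeletal protein of muscle that links actin to the membrane, and tiles of it serve as natural protein sequence with no known role in transcription. Random sequences serve as protein sequence with no evolutionary origin. Pairs of such domains show what the assay returns when nothing is recruited that is known to act on transcription, and therefore how far other pairs must lie from it. DMD lies on chromosome X at 31119222 to 33339388 (GRCh38.p14, RefSeq), and the files do not place the tiles within it. The sequences of the tiles and random controls were not used here, so the domains are given by name.

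Inert pairs were sequenced about as deeply as the library as a whole, but their share of each fraction moved in opposite directions in the activation and repression screens. They held 9767473 reads, 3.60% of all reads for 3.81% of the members, and 362 of the 380 pairs were seen in all 12 libraries. In the activation screen they made up 2.00% and 1.90% of the bound reads against 4.32% and 4.04% of the unbound reads. The order was turned in the repression screen, with 7.03% and 7.98% of the bound reads against 1.94% and 2.08% of the unbound reads. The memory shares were 4.55% and 4.53% bound against 3.36% and 3.30% unbound. The fractions did not overlap in any screen, and the replicates of a fraction differed by far less than the fractions did. Counting alone gave narrow 95% Wilson intervals, the widest being 3.99% to 4.09% in the shallowest library, and because reads come from PCR without molecular identifiers these intervals cover counting error only.

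The shallowest library, unbound cells of activation replicate 2, had 612999 read pairs, and the deepest, bound cells of activation replicate 1, had 55121999. The median inert pair had 37 reads in the shallowest library, 153 and 434.5 in the unbound libraries of the repression screen, and 735 to 2603 in the other 9 libraries. In the activation unbound library of replicate 2, 46 inert pairs had fewer than 5 reads, against 5 to 22 in the other 11 libraries.

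Reads were spread very unevenly among the pairs, and DMD tiles as a class held fewer of them than random controls. On average over the 12 libraries, random+random pairs took 48.2% ± 2.34 (SD) of the inert reads and DMD+DMD pairs took 7.84% ± 1.18, for the same number of pairs. The mixed orders lay between, with 20.2% ± 0.80 for DMD+random and 23.8% ± 1.53 for random+DMD. The ranges over the 12 libraries did not overlap, although those of the mixed orders came close, at 18.9% to 21.4% and 21.6% to 26.6%. The median random+random pair had 6.53 to 15.5 times the reads of the median DMD+DMD pair, depending on the library. DMD tiles 357 and 297 were exceptions within their class. Over both positions they took 14.6% and 13.2% of the inert reads, more than random controls 297 (12.7%), 372 (11.3%), 410 (9.50%), 21 (9.21%) and 385 (6.20%).

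The first domain accounted for most of this variation in depth. The average log2 reads of a pair were described by its first domain for 76.5% of the variance over the 380 pairs, by its second for 16.5%, and by both together for 94.6%. In the first position random control 257 took 15.3% of the inert reads and random control 205 took 15.0%, whereas DMD tile 182 took 0.393% and random control 21 took 0.113%. That is a 136-fold range in the first position, against 7.81-fold in the second, from 1.16% for DMD tile 251 to 9.10% for random control 21. Random control 21 was therefore the rarest inert domain in the first position and the most frequent in the second. Over the 20 domains the shares in the 2 positions had a Pearson correlation of 0.50 (Spearman 0.52) as a description, and the points share their libraries. The 2 orders of the same domains differed by 2.34-fold in reads at the median, and 25 of the 190 unordered pairs differed by more than 10-fold.

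Single pairs show this range. Random control 257 + random control 205 had the most reads, 152236 in all, from 344 in the shallowest library to 28494. Random control 21 first with DMD tile 176, 182 or 171 second had 5 reads each over all 12 libraries. The ratio between the 90th and the 10th percentile of pairs was 40.9.

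Not every pair could be scored. The submitters' minimum, at least 5 reads in either fraction and 50 in both together, was met in both replicates by 356 pairs in the activation screen, 356 in the repression screen and 361 in the memory screen. In all 3 screens 347 pairs passed, 20 passed in some and 13 in none. Of those 13, 10 had random control 21 in the first position. By class, 83, 99, 90 and 84 pairs passed in the activation screen for DMD+DMD, DMD+random, random+DMD and random+random. The minimum asks for reads in either fraction, so a pair depleted from 1 fraction could still pass.

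The baseline itself did not lie at 0 before centring. The score of a pair in a replicate is the log2 ratio of its bound to its unbound share of reads, with counts under 5 set to 5. Over all reads of each library, the median inert pair scored -1.20 and -1.12 in the activation replicates, 1.97 and 1.88 in the repression replicates, and 0.42 and 0.49 in the memory replicates. The screens differed far more than the replicates of a screen did. Every score given hereafter is centred on the median of the inert pairs of that replicate, and libraries were scaled on the same pairs in the count model, so a value says how a pair stands against the average inert pair.

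Against that average, few inert pairs differed between the bound and unbound fractions. With edgeR's quasi-likelihood test and Benjamini-Hochberg adjustment over all members tested, 3 of 356 inert pairs were called at 0.05 in the activation screen (1 higher in bound, 2 lower), where 23.7% of all 9063 members tested were called. Repression gave 3 calls of 356 (1 higher, 2 lower) against 58.6% of 9062 members. Memory gave 2 calls of 361 (1 higher, 1 lower) against 6.9% of 9337 members. The adjustment runs over all members, so the rate of 0.05 holds for all calls of a screen and not for those among inert pairs. A screen with more calls also admits larger unadjusted p-values. At an unadjusted p of 0.05, 17, 5 and 18 inert pairs passed in the 3 screens. That was 4.78%, 1.4% and 4.99% of those tested, below the share that passes this cut on average when no pair differs. Scaling on the inert pairs places them near 0 as a group, so these counts describe pairs that stand apart from the other inert pairs. Without the replicate block 8, 5 and 0 pairs were called, and with DESeq2 8, 5 and 12.

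Of the 8 calls, 4 were pairs with DMD tile 357, and all 4 had a lower bound-to-unbound ratio than the average inert pair. The tile was singled out after the calls were seen, and its share of them was not tested. It held more of the inert reads than any other DMD tile, at 14.6% over both positions. Random control 205 was in a called pair of each screen, in the activation and repression screens together with DMD tile 357 and in the memory screen with DMD tile 182. In the activation screen random control 372 + DMD tile 357 had 4004 bound and 9313 unbound reads in replicate 1 and 2053 and 160 in replicate 2. Its log2 difference from the average inert pair was -0.83 (SE 0.25, 95% interval -1.39 to -0.28, edgeR adjusted p = 0.0354), with scores of -0.71 and -0.94. Both replicates stood below the average pair, although its raw ratio was above 1 in replicate 2, whose unbound library was the shallowest.

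Random control 205 + DMD tile 357 was close to it, with 8629 bound and 19473 unbound reads in replicate 1 and 5178 and 402 in replicate 2. Its log2 difference was -0.81 (SE 0.26, edgeR adjusted p = 0.0485), with scores of -0.67 and -0.93. The third activation call went the other way. DMD tile 297 + random control 257 had 7228 bound and 6587 unbound reads in replicate 1 and 4167 and 83 in replicate 2, for a log2 difference of 0.81 (SE 0.25, edgeR adjusted p = 0.0431) and scores of 0.64 and 1.03.

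Among the repression calls, random control 410 + DMD tile 357 had 2934 bound and 494 unbound reads in replicate 1 and 1728 and 1049 in replicate 2. Its log2 difference was -1.07 (SE 0.31, edgeR adjusted p = 0.0131), with scores of -1.27 and -0.87. DMD tile 357 + random control 205, with the tile in the first position, had 9884 and 1090 reads in replicate 1 and 4475 and 2675 in replicate 2. Its difference was -0.76 (SE 0.27, edgeR adjusted p = 0.0312). These pairs are among the deeper ones, with at least 494 reads in each fraction of each replicate.

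The remaining calls rested on fewer reads and larger differences. DMD tile 255 + random control 372, also called in the repression screen, had 470 bound and 9 unbound reads in replicate 1 and 519 and 16 in replicate 2, a log2 difference of 2.66 (SE 1.01, 95% interval 0.40 to 4.93, edgeR adjusted p = 0.0442). The opposite order, random control 372 + DMD tile 255, scored 0.26 and -0.87. In the memory screen DMD tile 182 + random control 205 had 20 and 969 reads in replicate 1 and 23 and 497 in replicate 2, a log2 difference of -4.96 (SE 1.29, 95% interval -7.83 to -2.08, edgeR adjusted p = 0.0485).

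It was the lowest inert pair of that screen, and its replicates were nearly equal at -4.93 and -4.99. DMD tile 131 + DMD tile 255 had 954 and 464 reads in replicate 1 and 788 and 64 in replicate 2, a difference of 2.37 (SE 0.61, edgeR adjusted p = 0.0465). No pair was called in more than 1 screen. With either replicate left out, 0 of the 3 activation calls remained and 0 of the 2 memory calls, and in the repression screen 0 remained without replicate 1 and 1 without replicate 2.

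Most of the extreme pairs were not called, and the replicates of several differed widely. In the activation screen DMD tile 182 + DMD tile 297 had the lowest mean score, from -5.83 in replicate 1 (6 bound and 484 unbound reads) and -0.60 in replicate 2 (130 and 8 reads). Its log2 difference of -3.18 had an interval of -6.65 to 0.29 (edgeR adjusted p = 0.176). The lowest repression pair, DMD tile 130 + DMD tile 182, scored 0.96 in replicate 1 and -4.37 in replicate 2. The highest memory pair, random control 385 + DMD tile 182, scored 4.19 and 3.80 on 92 and 8 reads and on 328 and 16 reads. It missed the threshold (edgeR adjusted p = 0.0605).

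The other extremes of the activation screen shared a few domains. By fitted difference the lowest were DMD tile 182 + random control 124 (-3.23, edgeR adjusted p = 0.178), the pair with DMD tile 297 just described, and DMD tile 182 + random control 205 (-2.96, edgeR adjusted p = 0.184), so the same tile stood first in all 3. The last of these had 11 bound and 769 unbound reads in replicate 1 and 307 and 16 in replicate 2. The highest were DMD tile 251 + DMD tile 255 (1.98), random control 297 + DMD tile 259 (1.70) and DMD tile 130 + DMD tile 259 (1.41), which in the unbound fraction of replicate 2 had 0, 4 and 1 reads.

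The extremes of the other screens also had few reads in a fraction. The lowest repression pairs after DMD tile 130 + DMD tile 182 (-1.65) were DMD tile 255 + DMD tile 131 (-1.40) and DMD tile 182 + DMD tile 357 (-1.31), all pairs of DMD tiles with 34 or fewer bound reads in replicate 2. The highest after the called pair were DMD tile 251 + DMD tile 259 (1.77, edgeR adjusted p = 0.0576; scores 1.72 and 1.83) and DMD tile 251 + DMD tile 182 (1.64). The lowest memory pairs after the called one again had DMD tile 182 first, with DMD tile 297 (-4.28, edgeR adjusted p = 0.0905) and random control 372 (-3.80) second. The highest after random control 385 + DMD tile 182 (3.96) were random control 385 + DMD tile 251 (3.21) and DMD tile 130 + DMD tile 259 (2.96), whose replicates were 2.84 and 3.11 (edgeR adjusted p = 0.149).

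No difference between the baselines of DMD tiles and of random sequences passed the test. Counts were summed over the 90 DMD+DMD pairs and over the 90 random+random pairs, and the bound-to-unbound change of the first sum was compared with that of the second. Both sums of a library entered the fit as separate columns, treated as independent. In the activation screen DMD+DMD minus random+random was 0.15 in log2 (SE 0.22, 95% interval -0.32 to 0.61, edgeR adjusted p = 0.995), with -0.06 in replicate 1 and 0.36 in replicate 2. For repression it was -0.12 (95% interval -0.58 to 0.34, edgeR adjusted p = 0.987), with 0.26 and -0.50. For memory it was 0.08 (95% interval -0.38 to 0.55, edgeR adjusted p = 1.00), with 0.24 and -0.07. The sign differed between the replicates in each screen, and the intervals leave room for differences of up to about 0.61 in log2.

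Each inert domain was also compared by the kind of its partner. The change of a domain's reads summed over DMD partners was compared with that over random partners. No inert domain was called in any screen (0 of 20, edgeR), and 0, 0 and 0 passed at an unadjusted p of 0.05. Over the 100 contrasts tested per screen, 1%, 3% and 0% were called, so calls were rare for every kind of domain. DMD tile 357 differed most in the activation screen, by 0.41 (95% interval -0.01 to 0.82, edgeR adjusted p = 0.562), and DMD tile 251 differed most in the repression screen, by 0.51 (95% interval -0.14 to 1.15, edgeR adjusted p = 0.576). In the memory screen the largest was DMD tile 182 at 0.23 (95% interval -0.49 to 0.95, edgeR adjusted p = 1.00).

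Single inert domains, summed over all their inert partners in both positions, differed little between fractions when both replicates were fitted. The log2 differences over the 20 domains had an SD of 0.18 in the activation screen, 0.14 in the repression screen and 0.19 in the memory screen. These SDs depended on the replicates: without replicate 1 they were 0.31, 0.30 and 0.11, and without replicate 2 they were 0.18, 0.17 and 0.34. From the first position alone the memory SD was 0.38. None of the 20 was called in any screen by edgeR, against 46%, 63% and 24% of the 100 domains of the library summed in the same way. Those 100 include the 20. The sums of the 20 are made of the pairs on which libraries were scaled, which places them near 0 as a group. Scaled by total counts, 20, 20 and 18 of them were called. At an unadjusted p of 0.05, 2, 0 and 0 inert domains passed. DESeq2 called 0 in each screen. Sums of different inert domains share pairs, so the 20 values are not independent.

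At the ends of the range, DMD tile 255 (0.41) and random control 89 (0.31) were highest and DMD tile 357 (-0.21) and random control 385 (-0.17) lowest in the activation screen. For repression DMD tile 251 (0.21) and random control 385 (0.16) stood against DMD tiles 255 (-0.27) and 259 (-0.25), and for memory DMD tiles 255 (0.60) and 259 (0.34) against DMD tiles 357 (-0.21) and 182 (-0.19). The domains that passed unadjusted were random control 89, higher by 0.31 in the activation screen (SE 0.12, 95% interval 0.05 to 0.58, edgeR adjusted p = 0.0520), and random control 257, at 0.28 (SE 0.12, 95% interval 0.00 to 0.55, edgeR adjusted p = 0.0865). Without the replicate block 2 inert domains were called in the activation screen. DMD tile 357, singled out for its sign after its values were seen, was below 0 in each screen, at -0.21 (95% interval -0.50 to 0.07), -0.17 (-0.45 to 0.12) and -0.21 (-0.50 to 0.07). Its mean score was negative in all 6 replicates, from -0.13 to -0.35, and it was called in none of the screens (edgeR adjusted p = 0.209, 0.295 and 0.297). DMD tile 255 had the widest intervals, with 0.41 (-0.26 to 1.08), -0.27 (-0.94 to 0.40) and 0.60 (-0.06 to 1.27).

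For scale, DMD tile 31, which the rule leaves out, stood far outside this range in the same sums. Its log2 difference was 2.15 (SE 0.14) in the activation screen and -1.39 (SE 0.14) in the repression screen, both called, and -0.09 (SE 0.13) in the memory screen. The 40 pairs that joined it to an inert domain had a median score of 1.98 ± 0.47 (SD, n = 2), -1.34 ± 0.18 and 0.01 ± 0.02 in the 3 screens. It is named as a control in the files. The inert domain farthest from 0 in any screen was DMD tile 255, at 0.60 in the memory screen.

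Position made no difference that passed the test for an inert domain. First minus second position was called for 0 of 20 inert domains in each screen (edgeR; 0, 0 and 1 at an unadjusted p of 0.05), where 1.01%, 2.02% and 0% of the 99 domains tested were called. The largest difference was that of DMD tile 182 in the memory screen, lower by 1.30 in log2 when first (-1.30, SE 0.38, 95% interval -2.16 to -0.44, edgeR adjusted p = 0.202), with -0.98 and -1.62 in the replicates. Random control 385 followed at 1.00 (95% interval -0.10 to 2.10, edgeR adjusted p = 0.575), with 1.81 in replicate 1 and 0.20 in replicate 2. For activation the differences ran from -0.78 (DMD tile 255) and -0.72 (DMD tile 182) to 0.12 (random control 257) and 0.21 (DMD tile 171), and for repression from -0.19 (DMD tile 297) and -0.16 (random control 385) to 0.45 (DMD tile 171) and 0.51 (DMD tile 255). The memory range also held DMD tile 255 at -0.97 and DMD tile 171 at 0.52.

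The order of a pair gave differences that agreed little between replicates. Both orders were scored for 167, 168 and 171 unordered pairs in the activation, repression and memory screens. The score of an order minus that of its reverse had an SD of 0.89, 0.66 and 1.12, and its Pearson correlation between replicates was 0.07, -0.13 and 0.25, given as a description over pairs that share domains. The sign was the same in both replicates for 87 of 167, 83 of 168 and 94 of 171. The largest activation difference was that of DMD tile 182 + DMD tile 297 against its reverse, -7.23 in replicate 1 and -1.17 in replicate 2. For repression it was DMD tile 255 + random control 372, 1.60 and 4.30, and for memory DMD tile 182 + random control 385, -2.86 and -7.47.

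The spread of the inert pairs sets what the assay can resolve. The mean score of a pair over both replicates had an SD of 0.66 in the activation screen, 0.52 in the repression screen and 0.84 in the memory screen. In single replicates the SD was 1.13 and 0.73, then 0.59 and 0.91, then 1.15 and 1.06. Averaging therefore lowered the spread in every screen. Counting error alone would give SDs between 0.12 and 0.33, and the measured SD was 2.22 to 9.18 times larger. The ratio was smallest in activation replicate 2, where the shallow unbound library made counting error largest.

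Pairs more than 1 from the baseline in log2 were common in a single replicate and rare in both. In single replicates 9.02% to 21.5% of the inert pairs lay beyond 1 in either direction. In both replicates with the same sign the counts were 11 of 356, 3 of 356 and 18 of 361. A band of 2 SD around the mean of the inert pairs spanned -1.40 to 1.23 for activation, -1.02 to 1.04 for repression and -1.60 to 1.75 for memory.

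In the activation screen 15 inert pairs lay below that band and 1 above it. For repression 12 lay on either side, and in the memory screen 7 and 9. Of the 5598 pairs without a control that were scored in the activation screen 18.7% lay above the band and 12.9% below. For repression 74.7% of 5593 such pairs lay below and 1.45% above, and in the memory screen 14.1% of 5786 lay below and 2.25% above. The share outside the band was larger than that of the inert pairs on both sides in the activation screen, and on the lower side in the other screens. The band was set from the inert pairs themselves, so that few of them lay outside follows from its definition. The comparison was not matched for read depth, with which the spread changes, and it is a description with no test.

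The spread shrank with depth. Inert pairs with 5000 or more reads in both fractions of a replicate together had SDs of 0.25 to 0.49 over the 6 replicates, those with 1000 to under 5000 reads 0.52 to 0.92, and those with 200 to under 1000 reads 0.78 to 2.23. Pooled over replicates, 2.32% of 647 scores lay beyond 1 in the deepest class, 13.4% of 891 in the next and 35.2% of 505 in the third. With 50 to under 200 reads 54.7% of 95 scores did. Even in the deepest class the SD stayed above the counting SD, which was 0.03 to 0.10.

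DMD+DMD pairs scattered more than random+random pairs over all depths, while at similar depth the order depended on the depth class and the replicate. Over all depths their mean scores had an SD of 0.88 against 0.42 in the activation screen, 0.75 against 0.34 in the repression screen and 1.10 against 0.40 in the memory screen. Depth differs between the classes, so pairs with 1000 to under 5000 reads were compared. Where both classes had at least 20 such pairs, the SDs were 0.70 (22 pairs) against 0.45 (28 pairs) in repression replicate 2, and 0.73 (27 pairs) against 0.34 (26 pairs) in memory replicate 2. In the other 4 replicates a class had under 20 pairs. There DMD+DMD was wider in 3, and in memory replicate 1 random+random was wider, at 0.99 (14 pairs) against 0.75 (37 pairs). In that replicate and class 9 of the 14 random+random scores lay beyond 1, against 8 of the 37 DMD+DMD scores. All 19 inert pairs with random control 385 first lay above 1 in that replicate, as described further on. How many of the 9 had that domain first was not counted. With 5000 or more reads DMD+DMD had few pairs. Its SD was 0.42 (18 pairs) against 0.45 (72 pairs) in activation replicate 1, 0.14 (4 pairs) against 0.28 (64 pairs) in repression replicate 1 and 0.62 (6 pairs) against 0.32 (67 pairs) in memory replicate 1. These differences in spread were not tested, since pairs share domains.

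Replicates agreed poorly over the inert pairs. The Pearson correlation of scores between replicates was 0.12 in the activation screen (356 pairs), -0.07 in the repression screen (356 pairs) and 0.23 in the memory screen (361 pairs), given as a description since pairs share domains and libraries. Over all members scored it was 0.80, 0.80 and 0.32. The same sign in both replicates was found for 58.1%, 45.2% and 52.4% of the inert pairs, against 76.1%, 83.8% and 65.8% of all members. The correlation depends on the range of values. The SDs in replicates 1 and 2 of inert pairs scored in both were 1.01 and 0.73 against 1.79 and 1.62 for all members in the activation screen, and 0.56 and 0.90 against 1.78 and 2.22 in the repression screen. In the memory screen they were nearer, at 1.11 and 1.02 against 1.31 and 1.20. The median absolute difference between replicates was 0.54, 0.58 and 0.50 for inert pairs, and 0.56, 0.66 and 0.66 for all members. All members include the inert pairs. The median was 0.57, 0.73 and 0.72 for pairs without a control. For pairs of an inert domain with a domain that is not a control it was 0.54, 0.56 and 0.57. Replicates of inert pairs were thus about as far apart as those of other members in the activation screen. In the repression and memory screens they were closer together than those of pairs without a control. Depth was not matched.

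At higher depth the differences narrowed while the correlations stayed low in most comparisons. For pairs with 1000 or more reads, both fractions together, in each replicate the correlations were -0.03 (189 pairs), 0.03 (216) and 0.14 (246). For pairs with 5000 or more they were 0.60 (28), 0.30 (82) and 0.18 (90), with median absolute differences of 0.25, 0.41 and 0.24. In the repression screen the median difference stayed near 0.41 from the 1000-read to the 5000-read class (0.42 and 0.41).

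Part of the disagreement between replicates came in blocks of pairs that shared a domain in a given position. For each of the 20 domains, in each position, screen and replicate, the median score over its inert partners was taken, which gives 240 medians. Of these 20 lay beyond 0.5 and 9 beyond 1. The 9 belonged to DMD tile 182, random control 385 and random control 21 in the first position and to DMD tiles 255, 171 and 259 in the second. These domains were picked by these values, which are a description with no test.

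DMD tile 182 in the first position was low in replicate 1 of the activation screen, with a median of -2.18 and 12 of 16 pairs below -1, and in replicate 1 of the memory screen, with -2.55 and 13 of 17. Memory replicate 2 gave -0.37, with 8 of 17 below -1. The shift in replicate 1 of both screens was also seen with partners that are not controls, at -2.60 (45 of 66 below -1) and -2.54 (44 of 64). With those partners memory replicate 2 was low as well, at -1.75 (28 of 44). Its share of the inert reads shows the libraries concerned. It was 0.214% in activation bound replicate 1 and 0.190% and 0.214% in the memory bound libraries, against 0.345% to 0.525% in the other 9 libraries.

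Random control 385 in the first position was high in replicate 1 of the memory screen, where all 19 of its pairs lay above 1 (median 2.06), against 3 of 19 in replicate 2. With partners that are not controls the median was 1.32, with 46 of 76 above 1. Its share of the inert reads was 0.615% in memory unbound replicate 1 and 0.707% and 0.715% in the bound and unbound libraries of repression replicate 1, against 1.90% to 2.55% in the other 9. In the repression replicate both fractions were low together, and the score there was not shifted.

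In the second position DMD tile 255 showed a similar split between libraries. It took 1.41% to 1.94% of the inert reads in 5 libraries (activation unbound replicate 2, repression bound replicate 2, memory unbound replicate 1 and both memory libraries of replicate 2) and 3.03% to 4.42% in the other 7. DMD tile 259 was low in the same 5 libraries, at 1.31% to 1.77% against 2.72% to 3.70%. DMD tile 171 was low in 2 of them, at 0.884% in repression bound replicate 2 and 0.991% in memory bound replicate 2, against 1.70% to 2.27% elsewhere. Where only 1 fraction of a replicate was low, scores moved. DMD tile 255 had a median of 1.31 in memory replicate 1 (15 of 18 pairs above 1) and of 1.23 in activation replicate 2 (14 of 18), and with partners that are not controls 1.08 and 1.23.

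Most domains were stable by comparison. The highest share over the lowest share among the 12 libraries was 1.39 at the median of the 20 domains in either position, and it exceeded 2 for 4 domains in the first position and 3 in the second. Apart from those named, they were DMD tile 130 (2.16-fold, first position) and random control 21 (3.52-fold, first position). Without first-position DMD tile 182 and random control 385, the SD of the mean scores in the memory screen was 0.61 in place of 0.84, and 1 of its 2 called pairs was left by construction. What set these shares in single libraries was not tested.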

How the data were processed

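Ordered pairs of protein domains were counted in 12 libraries from K562 cells. The deposited counts are read pairs per library member; per the labels, the authors trimmed 30 bases from both ends, aligned both positions on their own with Bowtie2 (version not given in the sources used here) and summed reads per member. Totals ran from 612999 to 55121999, and the depth of the shallowest library limits activation replicate 2. The labelled groups and replicate numbers were used as given.

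Members entered a test when each replicate met the submitters' minimum (5 reads in either fraction, 50 in both together). edgeR 4.0.16 (R 4.3.3) fitted all 12 libraries by quasi-likelihood with a replicate block for each screen, 9557 members in the fit and 3 residual degrees of freedom, scaled by trimmed means (TMM) over the inert pairs. An adjusted p (Benjamini-Hochberg) at or below 0.05 was called. Sums by domain were fitted likewise. For partner kind and position, both sums of each library entered as separate columns, with an interaction term and 6 residual degrees of freedom. The fit treats these columns as independent, although both sums come from the same library. Scores used a floor of 5 reads. The pairing comes from the labels, in which bound and unbound libraries of a number belong to 1 infection. The correlation over 316 inert pairs of the bound and unbound replicate differences was -0.03, 0.30 and 0.02 in the activation, repression and memory screens. DESeq2 1.42.0 and limma 3.58.1, other scalings, minima, floors and each replicate left out were alternatives. Python 3.11.15, pandas 2.3.3 and numpy 2.4.6 made the tables. The fits were also run on simulated counts with known changes. Those counts were drawn independently, without shifts of domains in single libraries. The simulation therefore does not cover the shared shifts described above. The rule named the called pairs, the 3 highest and 3 lowest fitted pairs of each screen, the 3 with the most and fewest reads, the extreme domains of each summed contrast and the largest difference between orders; some domains were named after their values were seen and are marked so. The members and lists were chosen with earlier results of these data known.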

Additional observations from a re-analysis of the deposited data

Results flagged for a closer look

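Contrasts between DMD and random partners passed the edgeR test for 4 domains that are not controls, each summed over its inert partners in both positions. This fit treats the DMD and random sums of a library as independent columns, with 6 residual degrees of freedom. CRTC2 TORC_C, a domain of a CREB coactivator, was higher with DMD than with random partners in the activation screen, by 1.15 in log2 (SE 0.21, 95% interval 0.71 to 1.60, edgeR adjusted p = 0.00436), with 1.07 and 1.24 in the replicates. It was lost with limma on mean scores (0.42, adjusted p = 0.901) and without replicate 2 (adjusted p = 0.0817). In the repression screen JDP2 bZIP_1, from a bZIP transcription factor, differed by -1.96 (SE 0.51, edgeR adjusted p = 0.0440), with -1.47 and -2.46 in the replicates. ENSG00000102098 tile 62 differed by 1.53 (SE 0.32, edgeR adjusted p = 0.0219), with an SD of 0.055 between the replicates. ENSG00000102974 tile 12 differed by 0.86 (SE 0.20, edgeR adjusted p = 0.0233), with 0.97 and 0.75, and was lost with limma on mean scores (0.23, adjusted p = 0.977). The 3 repression contrasts were each lost when either replicate was left out.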

How the results depend on the processing

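How many inert pairs were called depended on the scaling. With total counts 192 and 295 were called in the activation and repression screens, and with TMM over all members 304 in the repression and 5 in the memory screen, since these scalings do not place the inert pairs at 0. Without the replicate block 8, 5 and 0 were called in the activation, repression and memory screens, with DESeq2 8, 5 and 12, with limma on scores 1, 8 and 0, and at a minimum of 200 reads 1 in the memory screen. Leaving out 1 replicate gave 0 (activation), 1 to 6 (repression) and 0 to 1 (memory). Inert domains called numbered 20, 20 and 18 with total counts, and 20 and 17 in the repression and memory screens with TMM over all members. The activation screen had 2 without the replicate block, 1 from the first position alone and 1 without either replicate; the repression screen had 1 with limma on scores and the memory screen 1 from the first position alone. DMD+DMD minus random+random turned to -0.13 (activation) and -0.011 (memory) with limma on mean scores. Leaving out 1 replicate gave -0.059 to 0.36, -0.50 to 0.26 and -0.072 to 0.24 in the activation, repression and memory screens. Domains called between partner kinds numbered 0 in the activation screen with limma on mean scores, and 5 in the repression screen without the replicate block. Leaving out 1 replicate gave 0 to 1 (activation) and 0 (repression), and 0 to 1 inert domains called between positions in the memory screen.

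The SD of mean scores with 1 replicate left out was 0.73 to 1.13 (activation), 0.59 to 0.91 (repression) and 1.06 to 1.15 (memory). In the memory screen it was 0.72 at 200 reads, 0.45 from the median absolute deviation and 0.61 with first-position DMD tile 182 and random control 385 left out, where 1 called pair remained; this last alternative was chosen after seeing the data. The replicate correlation in the activation screen was 0.0087 with a pseudocount of 1 and 0.0060 at 200 reads. The uncentred median score was -0.027, 2.06 and 0.52 with TMM over all members. Of 147 alternative values 92 kept their direction, side of the threshold or size. Depth limits activation replicate 2 most. The 2 replicates leave 3 residual degrees of freedom. The contrasts of partner kind and position have 6, because both sums of a library count as separate columns. A missed threshold therefore does not show that domains act alike.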

Other observations

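Pairs that join an inert domain to itself were left out by the rule, and they held more reads than the inert pairs in 3 of the 12 libraries. The 20 same-domain pairs took 6.62% and 7.88% of the bound reads of the repression screen, against 7.03% and 7.98% for the 380 inert pairs. They took 4.59% and 3.06% of the unbound reads of that screen, against 1.94% and 2.08%. In the activation screen their shares were 0.701% and 2.50% bound and 2.56% and 3.84% unbound, so the replicates of the bound fraction differed, and 2.50% exceeded the 1.90% of the inert pairs in bound replicate 2. In the memory screen they were 4.01% and 3.09% bound, and 0.294% and 2.24% unbound. The median same-domain pair had 43086 reads in repression bound replicate 1, against 2603 for the median inert pair.

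Scores of the same-domain pairs followed those shares. Their median was 3.43 in memory replicate 1 and -0.04 in replicate 2, and -0.68 and 0.64 in the activation replicates. In the repression replicates it was -1.21 and -0.61, and 7 of 20 lay below the 2 SD band of the inert pairs, against 12 of 356 inert pairs. In the memory screen 8 of 20 lay above the band, against 9 of 361 inert pairs. In the activation screen 0 of 20 lay outside it on either side. None of the 20 was called by edgeR in any screen, while 0, 1 and 9 passed at an unadjusted p of 0.05. Between screens, the mean scores of inert pairs had Pearson correlations of -0.11 (activation and repression, 348 pairs), 0.35 (activation and memory, 352) and 0.09 (repression and memory, 353), as descriptions over pairs that share domains. The Spearman values were -0.14, 0.24 and 0.08. DMD tile 182 had the lowest mean score of the first-position domains in both the activation (-1.32) and the memory screen (-1.59). Its part in the correlation was not tested.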
